A study of Arabidopsis thaliana with 8 samples.

Results

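The balance between 22-nt and 21-nt small RNAs was described gene by gene in es3, an Arabidopsis thaliana mutant with both arms of cytoplasmic RNA decay impaired. Members were the genes whose authors' mean values in es3, summed over both size classes, reached 20, which held for 4037 of the 32420 genes in the deposited table. The same minimum was reached by 2819 genes in es3dd and by 2896 in the wild type Col. For each member the ratio was log2((22-nt mean + 1)/(21-nt mean + 1)), so a positive ratio leans to 22 nt and a negative one to 21 nt.

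The libraries came from aerial parts of 20-day-old plants kept for 6 days on MS medium and then for 14 days on soil, and received no treatment. The genotype es3 combines ein5-1 with ski2-3. The genotype es3dd adds dcl4-2 and dcl2-1 to this pair, so both carry the decay mutations and es3dd also lacks DCL4 and DCL2 function. Each genotype had 4 libraries, described as biological replicates in the series' design text. Col appears in the deposited table as a mean but not among the 8 labelled libraries, so it has no SD and no test here.

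Dicer-like enzymes set the size of plant small RNAs. DCL1 cuts most microRNAs, mainly of 21 nt, while DCL4 makes 21-nt and DCL2 makes 22-nt siRNAs from double-stranded RNA. A 22-nt small RNA bound by AGO1 can set off a further round of siRNA production on its target. EIN5 (XRN4) digests uncapped mRNAs from the 5′ end and SKI2 is a helicase of the complex that feeds RNA to the exosome, and plants without both make siRNAs from many of their own mRNAs.

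Mature microRNAs are the members whose length is written in the annotation, so their sequences are given for the loci at both ends of the scale. They were read from RefSeq's TAIR10.1 assembly at its annotated mature features, 5′ to 3′, with the seed (bases 2 to 8) in capitals. The first 8 belong to loci that leaned to 21 nt by the authors' means, the last 6 to loci that leaned to 22 nt.
miR845a: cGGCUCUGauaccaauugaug
miR159a: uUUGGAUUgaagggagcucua
miR167a-5p: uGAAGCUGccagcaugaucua
miR167b: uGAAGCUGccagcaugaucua
miR393b-5p: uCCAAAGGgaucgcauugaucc
miR393b-3p: aUCAUGCGaucucuuuggauu
miR173-5p: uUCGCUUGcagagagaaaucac
miR173-3p: uGAUUCUCuguguaagcgaaa
miR319c: uUGGACUGaagggagcuccuu
miR156b-5p: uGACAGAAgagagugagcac
miR156b-3p: uGCUCACCucucuuucugucagu
miR848: uGACAUGGgacugccuaagcua
miR850: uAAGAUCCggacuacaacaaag
miR167d: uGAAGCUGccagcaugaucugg
The miR167 sequences share the seed GAAGCUG. The mature form of MIR167d (chromosome 1, 11137556 to 11137577) is annotated with 22 nt, and those of MIR167a (chromosome 3, 8108090 to 8108110) and MIR167b (chromosome 3, 23406177 to 23406197) with 21 nt.

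Values are in the authors' TPM, which are scaled apart for each size class, to a total not stated, and not divided by gene length. Over all genes the es3 means summed to 525481 at 21 nt and 225727 at 22 nt. Library values were obtained by resolving each mean into whole reads. An es3 library then held 219316 to 270477 resolved reads at 21 nt and 169587 to 207856 at 22 nt, without the genes above the reach of this step. The order of the 4 values is arbitrary, and the place of a value does not link a 21-nt to a 22-nt library. The recovered members held 95 to 2018 reads over the 8 es3 values, with a median of 195. All 17 nuclear photosynthesis genes listed were members, and so were 2 of the 7 genes listed for the root, SHR and SCR. No member came from the list of cytoplasmic RNA decay factors, so EIN5 and SKI2 themselves, below the minimum, do not check the genotype.

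Members split between both size classes, and the side a gene took followed its kind. The median ratio over members was -0.66, with quartiles at -1.49 and 1.20 and a range of -10.76 to 4.23. A ratio of at least 1 was found for 1241 members (30.7% of the genes at the minimum) and a ratio of at most -1 for 1690 (41.9%). Of the 2819 genes at the same minimum in es3dd, 450 (16%) had a ratio of at least 1 and 152 (5.39%) one of at most -1. Nuclear protein-coding genes, 2409 of the members, had a median of -1.30. The 1417 loci that RefSeq lists as pseudogenes, a class that takes in many loci described elsewhere as transposable element genes, had a median of 1.31. The 47 mitochondrion-encoded members stood at 0.96, the 51 plastid-encoded ones at -0.004, the 21 transposable element genes at 0.94 and the 85 MIR loci at -3.83.

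**Figure D1:**
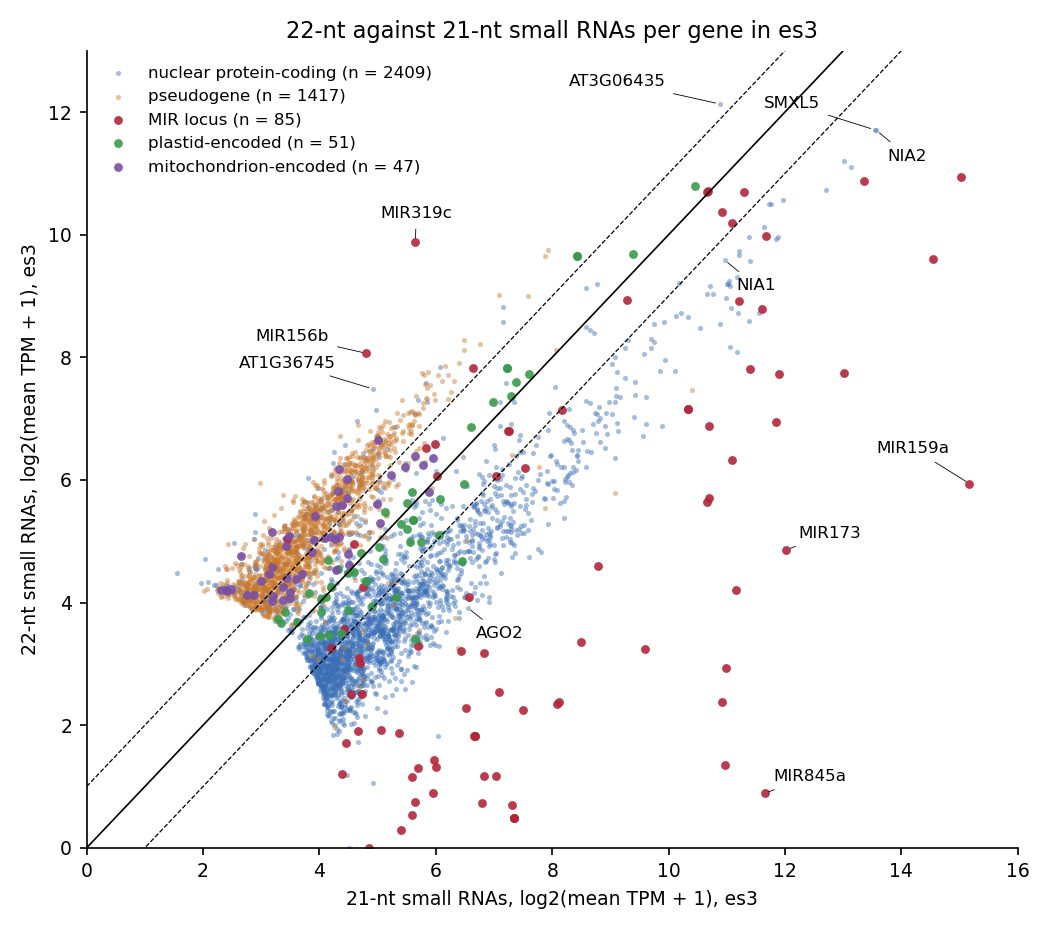
Authors' es3 mean of the 22-nt class against that of the 21-nt class, both as log2(TPM + 1), 1 point per member of the kinds named in the key. The solid line marks equal values and the dashed lines a ratio of 1 and -1; most pseudogenes (median ratio 1.31) lie above the solid line and most protein-coding genes (median -1.30) below it, with MIR loci farthest below.

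The difference between the size classes was tested across all genes on the recovered libraries with limma, on log2(value + 1), with a call at an adjusted p below 0.05 and a log2 difference of at least 1. Of 3855 recovered members 1242 were called towards 22 nt, where 12.9% of all 18019 genes tested were, and 1574 towards 21 nt, where 27.1% of all genes tested were. The median log2 difference was -0.56 over the members and -0.60 over all genes tested. When each column was centred on its median, the split of the members turned to 1605 towards 22 nt and 928 towards 21 nt, and the median over all genes tested moved to -0.11. The other 182 members, among them the most abundant, had means above the reach of the recovery and are given by the authors' means with no test.

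Pseudogenes made up most of the 22-nt side. Of 1408 tested, 1057 were called towards 22 nt and 20 towards 21 nt (1332 and 13 when median-centred). They held 26.6% of the 22-nt signal of all genes in es3 and 4.97% of the 21-nt signal. AT1G24967 (chromosome 1, 8793821 to 8797942), with the highest ratio outside protein-coding genes and MIR loci, had 21-nt values of 9.01, 6.56, 6.11 and 5.74 and 22-nt values of 54.6, 67.8, 71.0 and 51.1 in the 4 es3 libraries. Every 22-nt value was above every 21-nt value (log2 difference 2.99 ± 0.24, SE, n = 4, limma adjusted p = 2.2e-23). AT2G16040 (chromosome 2, 6976017 to 6977683), a transposable element gene of the hAT type, had 7.63, 15.3, 7.64 and 11.5 at 21 nt and 58.4, 62.7, 55.9 and 61.5 at 22 nt. Its groups did not overlap either (log2 difference 2.45 ± 0.22, SE, n = 4, limma adjusted p = 2.1e-19). The pseudogenes AT2G05820 and AT2G07400 had ratios of 2.52 and 2.38. The same lean was present without DCL4 and DCL2: the 1373 pseudogenes that also reached 20 in es3dd had a median of 1.31 in es3 and 0.67 in es3dd.

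The pseudogenes with the lowest ratios were an exception. AT4G04409 (chromosome 4, 2184420 to 2184717) overlaps MIR841b on the same strand and is annotated with miR841b-3p, and it had 88.8, 87.4, 90.2 and 63.2 at 21 nt against 11.4, 11.9, 1.77 and 9.46 at 22 nt. The groups stood far apart (log2 difference -3.32 ± 0.24, SE, n = 4, limma adjusted p = 1.9e-26). AT3G17050, at a ratio of -2.59, was called towards 21 nt as well, while AT1G46120 (-3.29) and AT1G05135 (-2.94) were above reach at 21 nt and not tested.

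Protein-coding genes leaned to 21 nt with a minority on the other side. Of 2277 tested, 1511 were called towards 21 nt and 145 towards 22 nt (875 and 205 when median-centred). The 145 differed from the 1511 in what the rule did not use. Their spliced length had a median of 1074 nt against 1874 nt, 36.6% against 5.82% had an uncharacterized or hypothetical product, and 73.1% against 21.5% lay within 5 Mb of the pseudogene-densest megabase of their chromosome. Their summed signal in es3dd had a median of 51.1 against 5.44, and in Col 42.7 against 6.98. These properties were compared after the calls were seen and without a test.

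Of the 8 protein-coding genes with the highest ratios, 4 are listed as uncharacterized or hypothetical. AT4G20095 (chromosome 4, 10871643 to 10873615), which codes for a hypothetical protein, had 0, 0.729, 6.11 and 0.82 at 21 nt and 24.3, 15.3, 18.6 and 27.4 at 22 nt. One library stood above the other 21-nt values, still below every 22-nt value (log2 difference 3.33 ± 0.40, SE, n = 4, limma adjusted p = 1.9e-12). AT1G36745 (chromosome 1, 13911137 to 13911679), uncharacterized, was the most abundant of the 8, with 32.6, 25.5, 34.4 and 24.6 at 21 nt against 149, 178, 182 and 203 at 22 nt. Every 22-nt library was far above every 21-nt one (log2 difference 2.57 ± 0.13, SE, n = 4, limma adjusted p = 2.1e-39). HPA1 (AT5G10330, chromosome 5, 3247847 to 3250964), an aminotransferase of histidine synthesis, had 5.55, 2.19, 2.29 and 1.64 at 21 nt and 21.2, 18.6, 18.6 and 17.0 at 22 nt (log2 difference 2.43 ± 0.36, SE, n = 4, limma adjusted p = 3.5e-09). The other 5, AT2G10975, AT1G36675, AT3G52830, AT5G28560 and AT4G03945, had ratios of 2.66, 2.54, 2.43, 2.32 and 2.30, and all were called towards 22 nt.

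Position on the chromosome and the ratio moved together. The densest megabase of RefSeq pseudogenes per chromosome, a landmark near the centromere, held 134 to 203 of them. Protein-coding members within 2 Mb of it had a median ratio of 0.73, with 70 called towards 22 nt and 39 towards 21 nt of 154 tested. Beyond 10 Mb the median was -1.39, with 11 and 583 of 788. The pseudogene median was 1.39 within 2 Mb and 0.82 beyond 10 Mb, where 10 of 32 were called towards 22 nt. These are descriptions over genes, which are not replicates. How reads that match several places were counted is not given in the sources used here, so values of repeated loci and near copies are uncertain.

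The lean to 21 nt was larger in genes whose signal was higher over es3dd, that is, in genes whose small RNAs were lower without DCL4 and DCL2. Protein-coding members were grouped by the fold of their summed mean + 1 in es3 over es3dd, a grouping chosen after the values were seen, which shares its es3 means with the ratio. The 253 genes below 1-fold had a median ratio of 0.66, with 92 called towards 22 nt and 22 towards 21 nt of 247 tested. The 335 genes at 16-fold or more had a median of -1.86, with 0 called towards 22 nt and 221 towards 21 nt of 236. Over the 771 genes at 8-fold or more the ratio ran from -3.08 to -0.31, so none of them had more 22-nt than 21-nt signal by the authors' means. At 8-fold or more, 618 of 658 tested genes were called towards 21 nt and 0 towards 22 nt; median-centred, the counts were 471 and 0.

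The 22-nt share of these 771 genes was similar at all levels of abundance. Its median was 23.4% of the summed mean for the 322 genes at 20 to 50, 21.2% for the 144 at 100 to 300 and 22.1% for the 44 above 1000. The ratio of 90% of the genes above 1000 lay between -2.87 and -1.26. The most abundant of these genes thus had a class balance close to that of the least abundant.

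**Figure D2:**
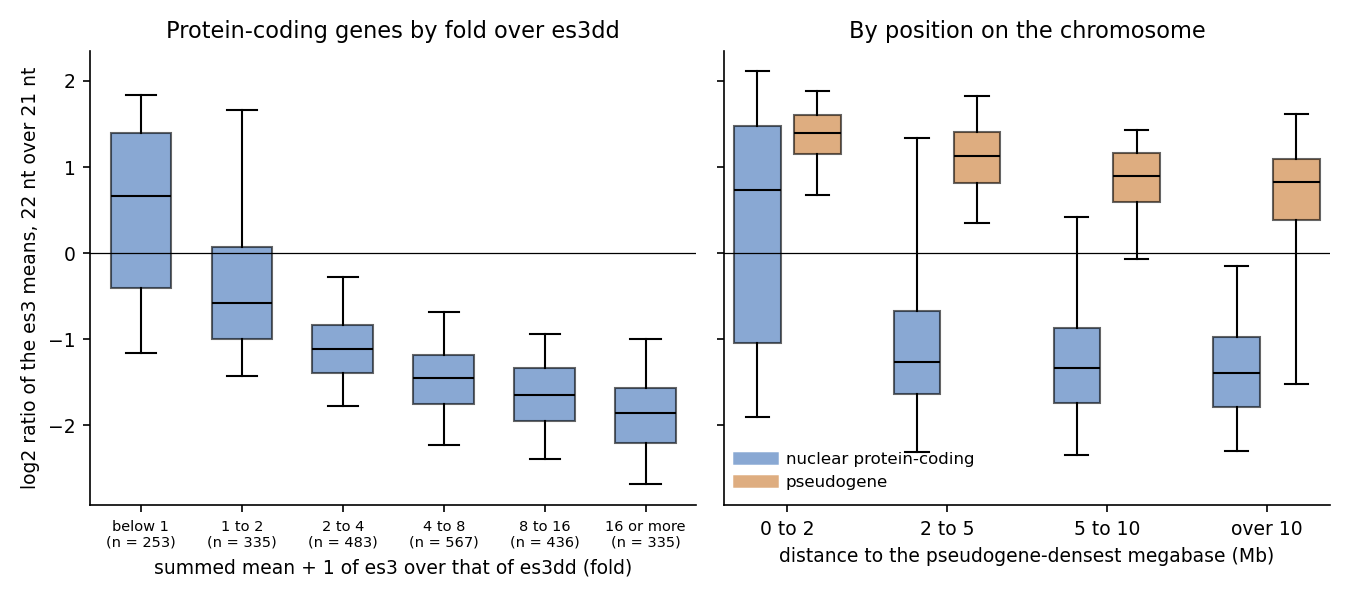
Log2 ratio of the es3 means (22 nt over 21 nt) of protein-coding members by fold of es3 over es3dd (left), and of protein-coding members and pseudogenes by distance to the pseudogene-densest megabase (right). Boxes span the quartiles with the median as a line, and whiskers the 5th to 95th percentiles; the protein-coding median is 0.66 below 1-fold and -1.86 at 16-fold or more, and 0.73 within 2 Mb and -1.39 beyond 10 Mb.

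Among the 8 protein-coding genes with the lowest ratios, 5 had ratios above -1 in es3dd. In es3dd 4 of these 5 had means under 3 in both classes, where the + 1 draws a ratio towards 0. LBD38 (AT3G49940, chromosome 3, 18514266 to 18516131), a repressor of nitrate-responsive genes, had 31.2, 27.0, 19.9 and 18.9 at 21 nt and 3.79, 0, 3.55 and 1.89 at 22 nt. The classes were far apart (log2 difference -3.13 ± 0.37, SE, n = 4, limma adjusted p = 7.6e-13), with a ratio of -2.93 in es3. Its means were only 1.65 at 21 nt and 1.87 at 22 nt in es3dd and 0 and 0.328 in Col, too low to show a lean there. AT2G15880 (chromosome 2, 6917514 to 6920319), a leucine-rich repeat protein gene, had 22.2, 23.3, 16.8 and 22.1 at 21 nt and 2.27, 0, 0 and 2.84 at 22 nt. It was called as well (log2 difference -3.54 ± 0.41, SE, n = 4, limma adjusted p = 1.9e-13), with a ratio of -3.28 in es3 and -0.71 in es3dd. The repeat protein genes AT1G63150, AT1G63070 and AT1G63630 of chromosome 1 stood at -3.08, -3.00 and -2.98 in es3 and at 0.23, -0.36 and -0.41 in es3dd. The other 3, AT1G61230, AT3G57710 and AT1G12290, kept ratios of -4.45, -6.81 and -5.65 in es3dd.

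The 5 genes with most signal outside MIR loci all leaned to 21 nt and were above reach. NIA2 (AT1G37130, chromosome 1, 14158452 to 14161938), the main nitrate reductase, had authors' means of 12110.4 at 21 nt and 3343 at 22 nt, a ratio of -1.86. SMXL5 (AT5G57130, chromosome 5, 23144947 to 23149615), a regulator of phloem formation, had 11907 and 3352, a ratio of -1.83. GAE6, a UDP-glucuronate epimerase that supplies pectin synthesis, AK3, an aspartate kinase of amino acid synthesis, and CRF2, a cytokinin response factor, stood at ratios of -2.02, -1.82 and -1.97. The gene with the highest 22-nt mean, the uncharacterized AT3G06435 (chromosome 3, 1968288 to 1970946), went the other way. It had 1883 at 21 nt and 4487 at 22 nt, a ratio of 1.25, against -2.04 in es3dd and 0.76 in Col. It was singled out after its values were seen, and it overlaps AT3G06436 on the opposite strand, whose reads cannot be told apart from its own because the use of strand in counting is not stated.

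Some genes that leaned to 22 nt in the wild type leaned to 21 nt in es3. Of the 890 protein-coding genes at 20 or more in both Col and es3, 104 had a ratio of at least 1 in Col and 84 one of at most -1, against 130 and 355 in es3. Among all genes at the minimum in each genotype, 28.3% had a ratio of at least 1 in Col and 6.42% one of at most -1. Most of the 104 protein-coding genes at 1 or more in Col, 85 of them, kept such a ratio in es3. 6 genes went from at least 1 in Col to at most -1 in es3, and 0 went the opposite way. NIA1 (AT1G77760, chromosome 1, 29235721 to 29239484), the second nitrate reductase, had means of 12.0 at 21 nt and 75.3 at 22 nt in Col and of 1992 and 769.9 in es3. Both classes were higher in es3, the 21-nt class by more, and the ratio went from 2.56 to -1.37. NIA2 went from 1.60 to -1.86 and SMXL5 from 1.89 to -1.83.

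The other 3 of the 6 had lower sums than these in es3. GTE7, a bromodomain protein, went from 1.91 to -1.35, DGAT3, an enzyme of oil synthesis, from 1.24 to -1.06, and SWEET12, a sucrose exporter of the leaf phloem, from 1.14 to -1.08. In es3 SWEET12 had 73.5, 58.3, 65.7 and 64.8 at 21 nt and 29.6, 34.7, 28.4 and 29.3 at 22 nt. Its classes did not overlap (log2 difference -1.08 ± 0.17, SE, n = 4, limma adjusted p = 1.8e-08), but the difference was short of a call at -0.99 with a pseudocount of 5, -0.97 when both classes were scaled to plastid-encoded genes and -0.58 when median-centred. DGAT3 lost its call too, at -0.95 on the plastid scale and -0.56 when median-centred. SMXL4, a close relative of SMXL5, showed 2.82 in Col and -1.89 in es3, though its wild-type sum, with 1.61 at 21 nt and 17.5 at 22 nt, was below 20. NIA1, NIA2, SMXL4 and SMXL5 are the 4 genes listed for the 22-nt siRNAs they are known for, with a median of -1.84 in es3, and all were above reach. The switching genes were picked out after their values were seen, from means without replicates in Col.

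**Figure D3:**
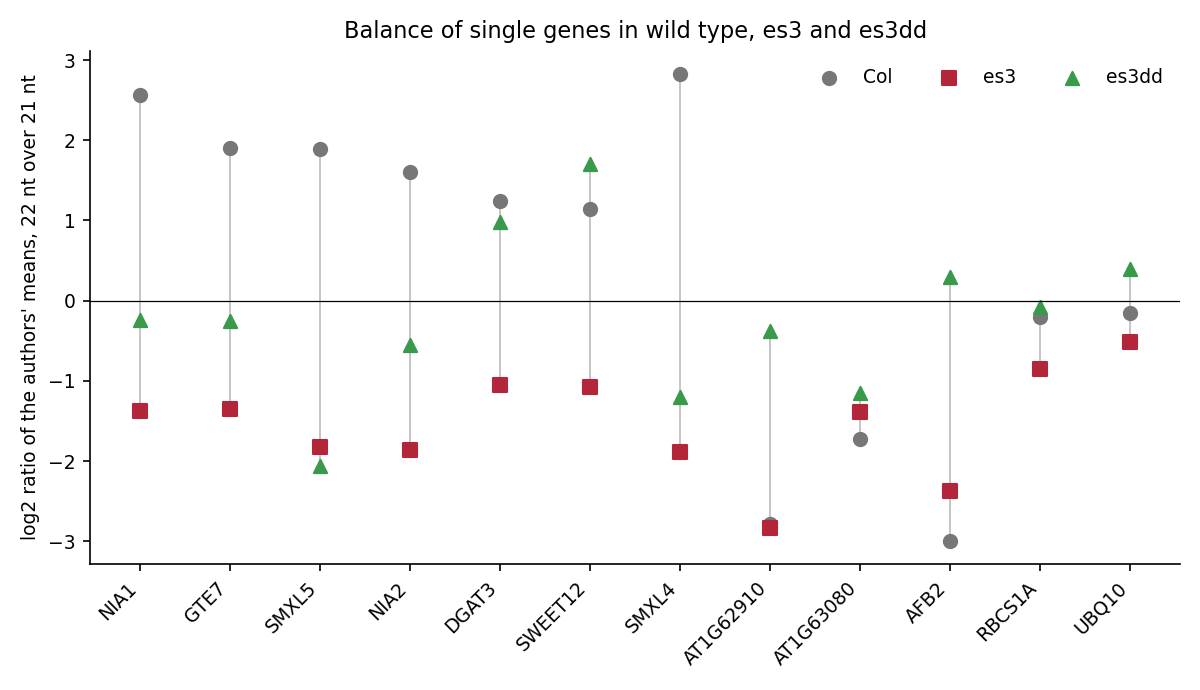
Log2 ratio of the authors' means, 22 nt over 21 nt, for 12 genes in Col (circles), es3 (squares) and es3dd (triangles), without error because Col has only a mean. NIA1, GTE7, SMXL5, NIA2, DGAT3, SWEET12 and SMXL4 lie above 0 in Col and below 0 in es3, while the PPR genes AT1G62910 and AT1G63080 lie below 0 in both.

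Genes of known siRNA and microRNA pathways were all on the 21-nt side. Every member of the lists in this and the next paragraph had a ratio below 0. Most protein-coding members did too, and they had a median of -1.30 beside -0.57 for all genes tested. Of 13 PPR genes of a phased siRNA cluster on chromosome 1, a known source of secondary siRNAs in wild-type plants, 12 were members with a median of -2.54, from -3.08 to -1.23. AT1G63150 (chromosome 1, 23419294 to 23421714) had an authors' mean of 2304 at 21 nt and 278, 277, 253 and 275 at 22 nt in the libraries. Its ratio was -3.08 in es3 and -3.07 in Col. AT1G62914 had 3385 and 1443, a ratio of -1.23, so neighbours in the cluster differed in balance, and as near copies they may share reads. The 5 members of the miR472 family of NLR resistance genes ran from -3.86 to -1.51. The lowest, AT1G12290, overlaps MIR472 on the same strand, so its reads cannot be told apart from those of the microRNA by position. Its ratio was -5.65 in es3dd. All 3 tested genes of the family, AT1G12290 among them, were called towards 21 nt, as were 66.4% of tested protein-coding members. AT5G43740 had 2124 at 21 nt and 288 at 22 nt as authors' means.

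MicroRNA targets had ratios of at most -1 throughout. The auxin receptors targeted by miR393, AFB2, TIR1 and AFB3, had ratios of -2.37, -1.89 and -1.41, and the 2 that could be tested, TIR1 and AFB3, were called towards 21 nt. AFB3 (AT1G12820, chromosome 1, 4368760 to 4371298) had 207, 174, 190.3 and 141 at 21 nt and 79.6, 55.1, 61.2 and 69.0 at 22 nt. The classes were apart in all libraries (log2 difference -1.41 ± 0.11, SE, n = 4, limma adjusted p = 2.6e-23), although the difference was -0.92 when median-centred. The 5 HD-ZIP III genes, which set leaf polarity and vascular pattern, ran from -2.21 to -1.08, and REV at -1.08 was the highest of them. The 3 tasiRNA targets ARF2, ARF3 and ARF4 stood at -1.21, -1.38 and -1.97, and all 3 were called towards 21 nt, ARF2 and ARF3 no longer when median-centred. The 5 of 10 listed SPL genes that were members had a median of -1.39, the 4 of 5 TCP genes -1.44, the 4 of 5 ARF targets of miR160 and miR167 -1.57, the 2 of 7 GRF genes -1.61, the 2 of 6 AP2-like genes -1.87 and the 3 HAM genes -2.01. All of their tested members, 4, 4, 1, 2, 1 and 1 in this order, were called towards 21 nt. So were 66.4% of all protein-coding members tested, and none of the 6 NAC targets of miR164 was a member. When median-centred, SPL9, ARF17, TCP10, TCP24 and GRF3 were no longer called, and ARF17 was not called without 1 of the es3 22-nt libraries either, at a difference of -0.92.

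Genes for silencing factors were members in few cases. Of 17 listed, 4 were members and all 4 were called towards 21 nt, as were 66.4% of tested protein-coding members. AGO1 (AT1G48410, chromosome 1, 17885633 to 17892632), the main microRNA effector, had 261, 238, 279 and 231 at 21 nt and 72.0, 90.7, 77.2 and 97.4 at 22 nt. Every 21-nt library was far above every 22-nt library (log2 difference -1.58 ± 0.10, SE, n = 4, limma adjusted p = 2.6e-33). DCL1, whose transcript holds MIR838, and AGO7, the effector that starts tasiRNA production with miR390, had ratios of -1.19 and -1.31 and lost the call when median-centred. AGO2 (AT1G31280, chromosome 1, 11181504 to 11185396), an antiviral Argonaute targeted by miR403, had 95.0, 83.8, 109 and 82.0 against 14.4, 13.6, 11.5 and 17.0. It had the lowest ratio of the 4 (log2 difference -2.63 ± 0.18, SE, n = 4, limma adjusted p = 1.4e-27).

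Photosynthesis and housekeeping genes had medians closer to 0 than the -1.30 of protein-coding members. Their shares called towards 21 nt were near that of all genes tested and below the 66.4% of tested protein-coding members. The 17 nuclear photosynthesis genes had a median of -0.85, with 5 of 15 tested (33.3%) called towards 21 nt, beside 27.1% of all genes tested. RBCS1A (AT1G67090, chromosome 1, 25048158 to 25049667), the small subunit of Rubisco, had 238, 241, 255 and 246 at 21 nt and 126, 135, 133 and 148 at 22 nt. The classes did not overlap, but the difference stayed under the threshold of 1 (log2 difference -0.85 ± 0.08, SE, n = 4, limma adjusted p = 2.7e-17), which it passed on whole reads without scaling, at -1.04. The 9 housekeeping members had a median of -0.66, as had all members, with 2 of 9 (22.2%) called towards 21 nt, of which GAPC2 was not when median-centred. UBQ10, a polyubiquitin gene, had 142, 122, 117 and 132 at 21 nt and 96.3, 72.0, 87.0 and 102 at 22 nt (log2 difference -0.52 ± 0.11, SE, n = 4, limma adjusted p = 4.0e-05). Of the nitrogen genes beside nitrate reductase, 6 were members and 0 of 5 tested were called, though GLU1 and NIR1 passed the threshold on whole reads without scaling, at -1.02 and -1.04. GLT1, a glutamate synthase gene above reach, had the lowest ratio of them at -1.82, and NIR1, nitrite reductase, stood at -0.84.

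Stress and hormone genes were on the 21-nt side for the most part. ERD14 (AT1G76180, chromosome 1, 28586663 to 28587931), a dehydrin, had 251, 232, 255 and 233 at 21 nt and 69.8, 60.2, 50.6 and 59.6 at 22 nt. It was the lowest of the 5 cold and drought members, of which 4 were called towards 21 nt (log2 difference -2.01 ± 0.10, SE, n = 4, limma adjusted p = 5.3e-40). COR47 and COR413-PM1 were 2 of these 4 and were not called when median-centred. The ethylene regulators EBF1 and EBF2, F-box proteins that remove EIN3, had ratios of -1.82 and -1.39. Of 4 ethylene members 3 were tested and EBF2 and EIL1, a relative of EIN3, were called towards 21 nt, EBF2 no longer when median-centred. The 5 members of the SMAX1-LIKE family beyond SMXL4 and SMXL5 ran from -2.21 to -1.41. Here 4 of 4 tested were called towards 21 nt, as were 66.4% of tested protein-coding members.

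**Figure D4:**
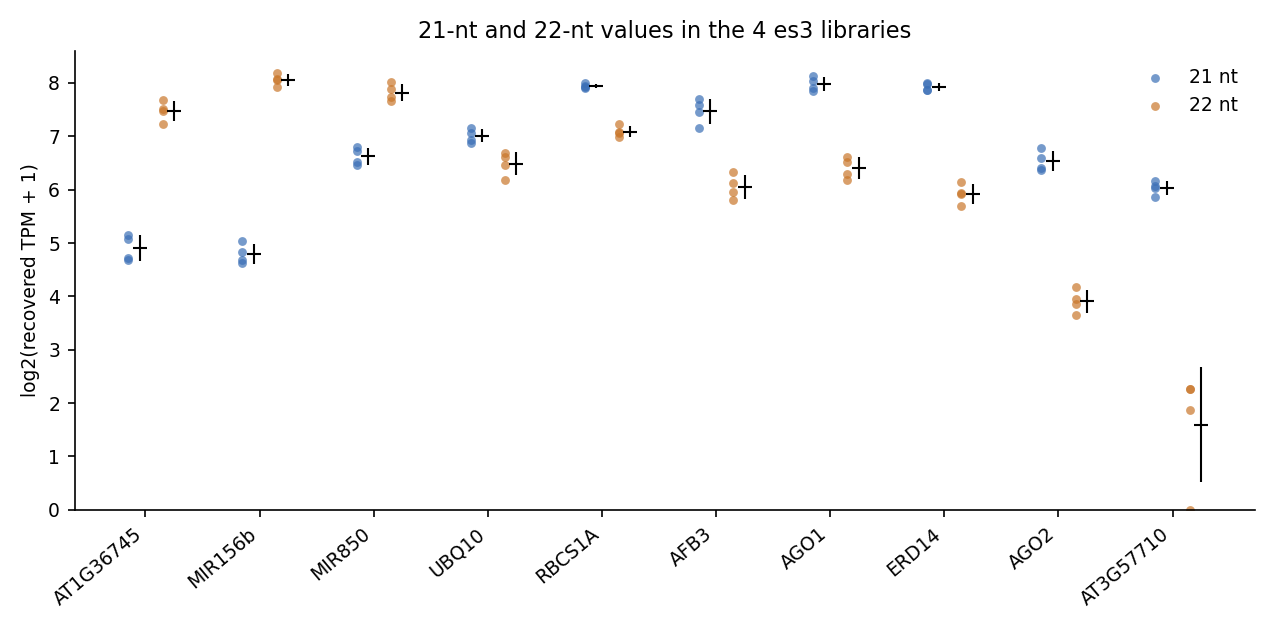
Recovered 21-nt and 22-nt values of the 4 es3 libraries for 10 named genes, as log2(TPM + 1), with the mean and SD beside the points. AT1G36745, MIR156b and MIR850 have all 22-nt libraries above all 21-nt libraries, and UBQ10, RBCS1A, AFB3, AGO1, ERD14, AGO2 and AT3G57710 have them below.

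MIR loci were the members with the most one-sided balance. Of 85 members, 65 had a ratio of at most -1, as had 41.9% of all members, and 10 one above 0. Means above reach left 36 of them untested, the most abundant included. Of 49 tested 36 were called towards 21 nt and 3 towards 22 nt, beside 27.1% and 12.9% of all genes tested. The lowest ratios of the 85 were those of MIR845a at -10.76, MIR167b at -9.63 and MIR159a at -9.23. MIR845a (AT4G23387, chromosome 4, 12217406 to 12217568), whose microRNA can act on retrotransposon RNA in pollen, had an authors' mean of 3211 at 21 nt and 1.52, 0, 0 and 1.89 in the 4 libraries at 22 nt. MIR159a (AT1G73687, chromosome 1, 27713233 to 27713416), which represses GAMYB genes, had 36864 at 21 nt and 56.9, 52.5, 71.0 and 61.5 at 22 nt. MIR159b, of the same family, kept more 22-nt signal, with means of 33438 and 1973 and a ratio of -4.08. MIR161, MIR162b and MIR396b, also among the 5 most abundant, stood at -4.93, -2.49 and -5.28.

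The highest ratios belonged to MIR319c, MIR156b, MIR848 and MIR850. MIR319c (AT2G40805, chromosome 2, 17029701 to 17029899), of the family that targets TCP genes, had 61.0, 24.0, 68.8 and 42.7 at 21 nt against an authors' mean of 938 at 22 nt, although its annotated mature form, printed above, has 21 nt. MIR156b (AT4G30972, chromosome 4, 15074899 to 15075081), of the family that represses SPL genes, had 31.9, 24.8, 27.5 and 23.8 at 21 nt and 292, 264, 242 and 269 at 22 nt, and its annotated forms have 20 and 23 nt. All 22-nt libraries were far above the 21-nt ones (log2 difference 3.26 ± 0.12, SE, n = 4, limma adjusted p = 4.8e-55). MIR850 (AT4G13493, chromosome 4, 7845707 to 7845927) and MIR848 (AT5G13887, chromosome 5, 4479397 to 4479591) are annotated with 22-nt forms only. MIR850 had 86.7, 110.0, 105 and 91.1 at 21 nt and 235, 211, 201 and 258 at 22 nt (log2 difference 1.19 ± 0.09, SE, n = 4, limma adjusted p = 1.6e-23). MIR848 was lower and more variable, with 9.71, 15.3, 6.11 and 8.20 at 21 nt and 16.7, 50.0, 21.3 and 38.8 at 22 nt (log2 difference 1.53 ± 0.27, SE, n = 4, limma adjusted p = 9.5e-07), and each overlaps another annotated gene on its strand.

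Annotated mature length followed the balance only in part. The 14 loci with a 22-nt form among those annotated had a median of -0.45 and 4 of them a ratio of at most -1, while the 62 loci with 21-nt forms only had a median of -4.41 and 3 of them a ratio above 0. MIR393b (AT3G55734, chromosome 3, 20691647 to 20691806) and MIR173 (AT3G23125, chromosome 3, 8236153 to 8236254), whose 5p forms trigger secondary siRNAs, are annotated with a 22-nt 5p and a 21-nt 3p form. By the authors' means MIR393b had 1929.9 at 21 nt and 4.19 at 22 nt, and MIR173 4162 and 28.0. The table does not separate the arms of a locus. Within the miR167 family, MIR167d had 74.2, 53.9, 62.7 and 59.1 at 21 nt and 96.3, 106, 85.2 and 93.6 at 22 nt, which did not overlap and fell short of a call (log2 difference 0.61 ± 0.13, SE, n = 4, limma adjusted p = 4.4e-05). Median-centring brought it past the threshold. MIR167a and MIR167b, 1 nt shorter in the annotation, had ratios of -8.04 and -9.63. MIR395a and MIR395e, and MIR395b and MIR395c, had identical means in both classes, so their values are not independent. Further loci were nearly equal, such as MIR167a and MIR167b, with 2019 and 2012 at 21 nt and the same printed sequence. Such loci may share reads, so the MIR loci counted are not all independent.

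Reads of a microRNA and of the gene around it cannot be told apart by position alone. Of the members that are no MIR locus, 29 overlap one, and 15 of these had a ratio of at most -1. Over all members 41.9% had such a ratio, and 1598 of the 2409 protein-coding ones did. AT1G12290 (chromosome 1, 4177917 to 4182593), an NLR gene that overlaps MIR472 and, on its own strand, SUMM2, had 17.3, 29.9, 35.9 and 33.6 at 21 nt and 1.52, 0, 0.887 and 1.89 at 22 nt. Its 22-nt values were near 0 in all libraries (log2 difference -3.92 ± 0.38, SE, n = 4, limma adjusted p = 1.6e-17). The 5 pseudogenes over MIR854 copies stood at ratios of 1.20 to 1.61. AT1G61230 (chromosome 1, 22578951 to 22580781), a lectin gene, had the lowest ratio of any protein-coding gene with 19.4, 18.9, 22.9 and 25.4 at 21 nt and 0 reads at 22 nt in all 4 libraries, and it overlaps no annotated gene. Against the floor of 3 reads over the group, its 21-nt mean was at least 33.8-fold higher, which covers counting error only. AT3G57710 (chromosome 3, 21384676 to 21387399), a kinase gene, had 65.9, 64.1, 71.1 and 57.4 at 21 nt and 3.79, 0, 2.66 and 3.78 at 22 nt (log2 difference -4.43 ± 0.31, SE, n = 4, limma adjusted p = 2.3e-28), and it overlaps AT3G57700 on the opposite strand.

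Organelle genes differed by genome of origin in their counts. Of 47 mitochondrion-encoded members 23 were called towards 22 nt and 0 towards 21 nt (40 and 0 when median-centred), beside 12.9% and 27.1% of all genes tested. ATMG00810 had the highest ratio of them, with authors' means of 5.31 at 21 nt and 26.1 at 22 nt. Of 47 plastid-encoded members tested, 0 were called towards 22 nt and 3 towards 21 nt (3 and 2 when median-centred). ATCG00430 was the lowest at -2.23, with means of 48.7 and 9.61, and its difference was -2.31 ± 0.24 (SE, n = 4; limma adjusted p = 9.9e-16). ATCG00650 and ATCG00640 were the other 2 called.

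Whether the balance depended on DCL4 and DCL2 was tested as a difference between the balance of es3 and that of es3dd, in one limma fit over both genotypes. Of 3822 members in that fit 306 shifted towards 22 nt in es3, against 2.41% of all 16498 genes tested, and 819 towards 21 nt, against 9.43%. Members were chosen by their es3 means alone, and only 629 of the 2409 protein-coding ones also reached 20 in es3dd. Where es3dd values are low the + 1 draws their ratio towards 0. The counts of members thus partly restate the lean in es3, and their excess over all genes is no separate support. The kinds of genes divided again. Protein-coding members gave 43 towards 22 nt and 807 towards 21 nt of 2274, and pseudogenes 240 and 9 of 1404. The totals depended on scaling. Median-centring gave 839 members towards 22 nt and 348 towards 21 nt, and scaling to plastid-encoded genes gave 72 and 1402. Protein-coding members gave more calls towards 21 nt than towards 22 nt under both scalings (343 against 98 and 1370 against 22). Pseudogenes gave 689 towards 22 nt and 4 towards 21 nt when median-centred, but only 40 and 23 on the plastid scale. Their median shift there was 0.16, beside 0.61 on the deposited scale, so little of it remained. All 16498 genes tested gave 1121 towards 22 nt and 533 towards 21 nt when median-centred, and 108 and 3772 on the plastid scale. Genes at 8-fold or more over es3dd gave 357 towards 21 nt and 0 towards 22 nt of 658, and the + 1 draws the es3dd ratio of such low genes towards 0.

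**Figure D5:**
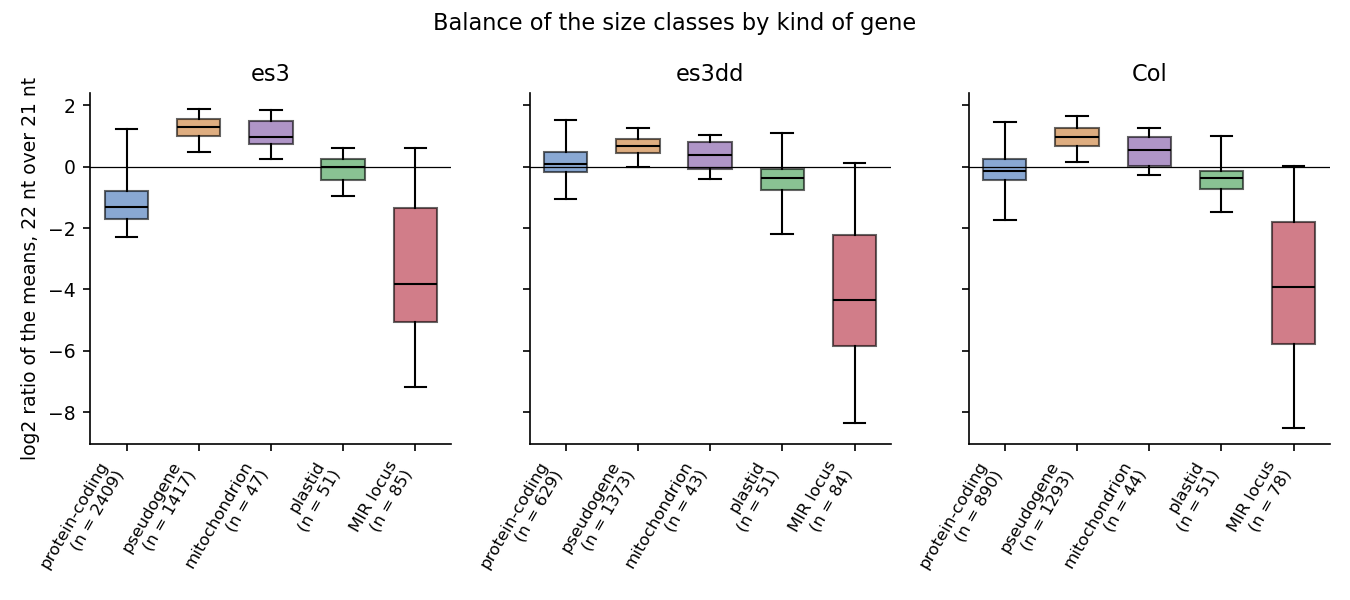
Log2 ratio of the authors' means, 22 nt over 21 nt, by kind of gene in es3, es3dd and Col, for members with a summed mean of at least 20 in the genotype shown. Boxes span the quartiles with the median as a line and whiskers the 5th to 95th percentiles; protein-coding genes have a median of -1.30 in es3, and pseudogenes, mitochondrion-encoded genes and MIR loci keep their side of 0 in all 3 panels.

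Among genes at 20 or more in both mutants the shift was smaller. The 629 such protein-coding genes had a median ratio of -0.49 in es3 and 0.07 in es3dd. MIR loci stayed on the 21-nt side in both genotypes, at -3.95 and -4.35 for the 84 shared. Only 29 could be tested, and 3 of these shifted towards 22 nt in es3, beside 2.41% of all genes tested. With voom weights the count was 1, and when median-centred 8. MIR156a was 1 of the 3. Its 21-nt values were 54.1, 61.2, 58.9 and 48.4 in es3 and 115, 169, 97.7 and 100.5 in es3dd. Its 22-nt values were 108, 80.5, 90.5 and 83.2 in es3 and 51.5, 56.9, 49.5 and 70.2 in es3dd. Its 22-nt libraries were above the 21-nt ones in es3 and below them in es3dd, a difference of 1.73 ± 0.20 (SE, n = 4; limma adjusted p = 1.3e-09).

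Of the members named for the largest shifts towards 21 nt, AT1G55210 (chromosome 1, 20597734 to 20598768), a dirigent-like gene with few reads in es3dd, had 103, 103, 109 and 107 at 21 nt and 15.9, 27.1, 17.7 and 32.2 at 22 nt in es3. In es3dd it had 1.77, 0.915, 0 and 0 at 21 nt and 2.41, 5.25, 3.54 and 2.67 at 22 nt. The order of the classes was opposite in the mutants, and the difference was -3.71 ± 0.48 (SE, n = 4; limma adjusted p = 3.9e-08). The other 4 were IBR10, an enzyme of auxin precursor conversion, GRP5, a glycine-rich protein, AT4G34220, a receptor-like kinase, and BIM1, a brassinosteroid transcription factor, with differences of -3.74, -3.62, -3.56 and -3.54.

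The largest shifts towards 22 nt included genes still on the 21-nt side. AGO2 had 38.1, 99.7, 155 and 102 at 21 nt and 0.805, 2.63, 0 and 2.67 at 22 nt in es3dd, so its 21-nt values overlapped those of es3 while its 22-nt value was lower in every es3dd library than in every es3 library. The difference was 2.71 ± 0.41 (SE, n = 4; limma adjusted p = 1.7e-06). AT3G57710 had 375, 316, 265 and 365 at 21 nt in es3dd, all above its es3 values, and shifted by 2.51 ± 0.44 (SE, n = 4; limma adjusted p = 2.2e-05) in the same direction. AT2G03570 (chromosome 2, 1085560 to 1085988), uncharacterized, had 7.63, 3.64, 6.11 and 9.02 at 21 nt and 10.6, 30.5, 23.1 and 25.5 at 22 nt in es3. In es3dd it had 57.6, 32.0, 33.5 and 62.8 at 21 nt and 21.7, 18.4, 18.6 and 21.3 at 22 nt. It leaned to 22 nt in es3 and to 21 nt in es3dd, a difference of 2.71 ± 0.40 (SE, n = 4; limma adjusted p = 6.2e-07). AT2G11930 and AT5G53740 shifted by 2.43 and 2.31.

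The members just inside the minimum of 20 were SAB, AT5G47060 and AT1G49975, with ratios of -0.40, -1.01 and -1.45. Just outside it lay AT3G32168, TRM26 and CHUP1, with ratios of 1.83, -1.16 and -0.84.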

How the data were processed

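Small RNA libraries of aerial parts were made with the NEBNext kit from miRNeasy extracts and read from one end at 50 bp. Bowtie 1.2.2, SAMtools 1.9 and DESeq2 are named with the TAIR10 build in the submitters' processing notes. The deposited values are TPM, per the file headers, averaged by the authors over the libraries of a genotype. They are not divided by gene length, the 21-nt and 22-nt classes are scaled apart, and the total they are scaled to, the counting rules and the use of strand are not given in the sources used here. A ratio of 0 therefore does not mark equal numbers of molecules.

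Every mean up to 1500 reads over 4 libraries was resolved into whole reads (relative tolerance 5e-15), with exactly 1 solution for each of 25216 values at 21 nt and 23737 at 22 nt in es3. These hold 34.8% and 70.3% of the signal, and 173 and 73 values were above reach. Recovered values carry no replicate number. Differences between libraries of a group exceeded sampling noise (chi-square per degree of freedom of 1.39 to 1.90), so none was counted as a duplicate. P-values and SEs rest on the spread between these libraries as limma moderates it, with each gene's own spread drawn towards a trend over all genes. An SE can therefore differ from that of the 4 values printed for a gene.

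Genes with a mean of at least 1 entered limma 3.58.1 (R 4.3.3, trend, on log2(value + 1)), in one fit of 22 against 21 nt in es3 and one with es3dd for the difference in balance, adjusted by Benjamini-Hochberg over all genes tested. The fits and the recovery were tested on simulated data. Tables used Python 3.11.15, numpy 2.4.6 and pandas 2.3.3. RefSeq TAIR10.1 annotation matched 31722 gene IDs and gave the coordinates. Named genes were the 8 highest and 8 lowest ratios of protein-coding genes, 6 and 6 of MIR loci, 4 and 4 of other kinds, the 5 largest sums in and outside MIR loci, up to 4 of each of 22 lists, 3 on each side of the minimum and the 5 largest shifts each way; genes added outside this rule are said to be. The members and lists were chosen with earlier results of these data known. Alternatives covered the pseudocount, filters, scaling, voom weights, the minimum sum and leaving out each library.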

Additional observations from a re-analysis of the deposited data

Results flagged for a closer look

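In 7 of 188 groups of 4 es3 libraries, over 108 named genes, one library stood far from the other 3 by Dixon's criterion. Chance meets it in about 1 group in 20, or 9.4 of 188, so 7 is no more than chance would bring. At 21 nt the highest library was 6.11 for AT4G20095, against a median of 0.77, and 5.55 for HPA1, against 2.24. The lowest 21-nt library of AT4G04409 was 63.2, against a median of 88.1. At 22 nt AT3G52830 had a highest library of 42.6, against 26.5, and AT1G63150 a lowest library of 253, against 276. SMXL2 had a highest 21-nt library of 27.7, against 17.6, and a lowest 22-nt library of 0.946, against 6.80. In AT4G20095, HPA1, AT3G52830, AT4G04409 and SMXL2 the classes did not overlap with these libraries included.

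The members named for the largest shifts were taken from those called in the limma test of the difference between es3 and es3dd. That their balance differed is thus set by the selection and is no separate support. Towards 22 nt in es3 the differences were 2.71 for AGO2, 2.71 for AT2G03570, 2.51 for AT3G57710, 2.43 for AT2G11930 and 2.31 for AT5G53740. Towards 21 nt they were -3.74 for IBR10, -3.71 for AT1G55210, -3.62 for GRP5, -3.56 for AT4G34220 and -3.54 for BIM1.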

How the results depend on the processing

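For 22 against 21 nt in es3, calls over all genes tested were 2332 towards 22 nt and 4888 towards 21 nt, and became 1122 and 1663 with a pseudocount of 5 and 3689 and 1911 when columns were centred on their medians. A filter at a mean of 5, which tests fewer genes, left 2785 towards 21 nt. Median-centring left 928 of the members' 1574 calls towards 21 nt.
For the difference from es3dd, calls towards 22 nt over all genes tested were 397, and became 261 with a pseudocount of 5, 1121 median-centred, 159 on whole reads and 108 scaled to plastid-encoded genes. Those towards 21 nt were 1555, and became 1013 with a pseudocount of 0.5, 533 median-centred, 3772 on the plastid scale and 911 with voom weights. In the same order of settings, the members' 306 calls towards 22 nt became 190, 839, 111 and 72, and their 819 towards 21 nt became 348 median-centred, 1402 on the plastid scale and 475 with voom.
A pseudocount of 5 in the ratio moved its median to -0.53 over members, -1.04 in protein-coding genes, 1.07 in pseudogenes and -3.15 in MIR loci. A minimum sum of 10 gave 2834 genes with a ratio of at most -1 and medians of -1.11 in protein-coding genes, 1.23 in pseudogenes and 0.044 in plastid-encoded genes. A minimum of 100 gave 182 genes at 1 or more, 400 at -1 or less and medians of -1.34 over members, -1.68 in protein-coding genes, 1.496 in pseudogenes, -4.20 in MIR loci, 0.74 in mitochondrion-encoded and 0.25 in plastid-encoded genes. Ratios centred on the members' median gave 0 over members, 753 at -1 or less, -0.64 in protein-coding genes, 1.97 in pseudogenes, -3.17 in MIR loci, 1.62 in mitochondrion-encoded and 0.65 in plastid-encoded genes. The plastid-encoded median, -0.004 as reported, thus changed sign under the last 3 of these settings, and the cause of these moves was not tested.
Leaving out 1 library gave 2177 to 2251 calls towards 22 nt and 4246 to 4680 towards 21 nt in es3 over all genes tested, 1215 to 1249 and 1552 to 1605 over members, and for the difference from es3dd 331 to 389 and 1146 to 1502 over all genes tested and 260 to 305 and 650 to 811 over members. No paired analysis was possible because resolved values have no library number, so the planned replicate block was not run. The 182 members with a class above reach have no error here, and the ratio of genes near the minimum rests on as few as 95 reads.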
